A study of Mus musculus with 15 samples.

Results

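The genes described here are the neuropilins Nrp1 and Nrp2, the A-type plexins Plxna1, Plxna2, Plxna3 and Plxna4, and the class 3 semaphorins Sema3a, Sema3c, Sema3f and Sema3g of the mouse. DNA methylation was measured in micro-dissected dentate gyrus by reduced representation bisulfite sequencing (RRBS), which reads short CpG-rich fragments after bisulfite has turned unmethylated cytosines into uracil. The 15 mice were female C57BL/6JRj, 7.5 months old, and were labelled by housing, with 5 in standard cages for 6 months, 5 in an enriched environment for 6 months, and 5 returned to standard cages for 3 months after 3 months of enrichment (the withdrawal group). Each deposited value is the percent methylation of 1 cytosine on 1 strand in 1 mouse, called a row here. Of 455836 CpG rows, 266 lay inside these genes or within 5 kb of them in the GRCm38 gene table, and 9 of the 10 genes had at least 1 row; Plxna3 had none. The genes were chosen by the percent methylation of 1 CpG near Nrp2, whose values separated the standard mice from the other 2 groups, so the values at that CpG are given as a description with no test, and the questions are whether its neighbours and the partner genes showed the same pattern.

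Class 3 semaphorins are secreted proteins that steer axons and dendrites. A neuropilin on the receiving cell binds the semaphorin, and an A-type plexin in the same complex carries the signal inward and lets the cytoskeleton collapse. Nrp1 is the classical receptor for Sema3a and Nrp2 for Sema3f, and in the hippocampus this system guides granule cell axons, prunes mossy fibre branches and sets spine number. Methylated CpGs are usual in gene bodies and between genes, while CpG-dense gene starts are usually unmethylated.

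The promoter sequence of RefSeq (GRCm38.p6) that begins 418 bases downstream of the selecting CpG is shown first because it is the CpG-dense stretch between that CpG and the start of Nrp2. The Plxna2 promoter is shown beside it because it carries the densest set of measured cytosines among the promoters of these genes. Capitals mark CCGG, the motif cut by MspI, the enzyme usual in RRBS, in the Nrp2 sequence, and the CpGs that had a measured row in the Plxna2 sequence. Both are on the plus strand and end at the base before the gene.
Nrp2 chr1:62703067-62703316: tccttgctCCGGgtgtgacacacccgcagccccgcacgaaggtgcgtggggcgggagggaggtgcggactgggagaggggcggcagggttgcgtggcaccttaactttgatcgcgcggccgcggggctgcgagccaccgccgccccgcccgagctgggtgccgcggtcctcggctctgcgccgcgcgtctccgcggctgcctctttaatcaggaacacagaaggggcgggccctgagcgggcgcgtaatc
Plxna2 chr1:194619579-194619790: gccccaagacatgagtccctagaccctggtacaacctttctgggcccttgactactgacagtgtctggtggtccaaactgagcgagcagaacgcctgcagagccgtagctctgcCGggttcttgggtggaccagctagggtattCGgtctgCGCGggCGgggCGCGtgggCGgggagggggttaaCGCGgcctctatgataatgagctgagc

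The Nrp2 stretch held 32 CG pairs in 250 bases and no measured row, so methylation within this stretch was not seen. The nearest rows before it, at 62702986 and 62703013, averaged 0.154% and 1.42%. The Plxna2 stretch held 13 CG pairs in 212 bases, and 17 rows at 10 of them were measured. Counted over the full RefSeq window of 250 bases before to 50 after the start, Sema3c had 42 CG pairs, Nrp2 37, Plxna2 25, Plxna3 18, Nrp1 14, Sema3g 8 and Sema3a 2, beside a median of 7 over 32851 windows. At least 37 pairs were found in 5.58% of all windows and at least 42 in 3.03%. CCGG was searched as those letters, which read the same on both strands, and was present in 52.8% of all windows. Of the 7 matched genes only Sema3a had none, and Plxna1, Plxna4 and Sema3f had no matching window.

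The CpG that chose the genes lay at position 62702649 of chromosome 1 on the plus strand, 668 bases before the start of Nrp2 (chromosome 1, 62703317 to 62818692). The 5 standard mice had 38.5%, 35.7%, 23.4%, 60% and 12.9% methylation there. All 5 enriched mice were at 0, and the withdrawal mice were at 0 except withdrawal mouse 4, which had 2.22%. The lowest standard mouse was thus above the highest of the 10 others, which is the feature for which the site was picked. Over the whole table, 23 of 113832 rows with a value in every mouse (0.0202%) had all 5 standard mice above all 10 others, and 34 (0.0299%) had them all below. Among the 79 such rows of these genes, the selecting CpG was the 1 row of the first kind, and none was of the second. The opposite strand of this CpG had no row, so no second reading of the same CpG was at hand.

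The closest neighbours had other patterns. At 26 bases downstream, standard mice had 0, 32.1%, 0, 0 and 11.1%, enriched mice 0, 0, 33.3%, 60% and 0, and withdrawal mice 0, 5.17%, 0, 0 and 23.1%. The highest value at this neighbour was thus in an enriched mouse, the groups overlapped, and across the 15 mice its values had a Pearson correlation of -0.13 with those of the selecting CpG. At 33 bases, 13 mice were at 0, standard mouse 5 had 12.7% and withdrawal mouse 4 had 2%. The minus-strand rows at 337 and 364 bases had values in 12 mice each. At the former, withdrawal mouse 4 had 1.85% and the other 11 mice 0; at the latter, withdrawal mice 2 and 4 had 5.88% and 11.1% and the other 10 mice 0. The standard mice, highest at the selecting CpG, were all at 0 in these 2 rows where they had a value.

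Counted together, 4 neighbouring rows lay within 1 kb, with row means of 0.154% to 10.99%. Values above 0 made up 3 of 16 in standard mice, 2 of 18 in enriched mice and 6 of 20 in withdrawal mice. The linear model described under the group comparisons tested 3 of the 4, and the lowest unadjusted p in any of the 3 contrasts was 0.182 (limma, lowest adjusted p = 0.892). At 1098 bases the standard mice were at 0 in all 5, while the enriched mean was 3.81% ± 3.31 (SD, n = 3) and the withdrawal mean 4.87% ± 6.88 (SD, n = 5). At 3736 bases standard mouse 3 had 21.9%, enriched mice 3 and 5 had 8.51% and 40%, and the withdrawal mice were at 0.

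**Figure D1:**
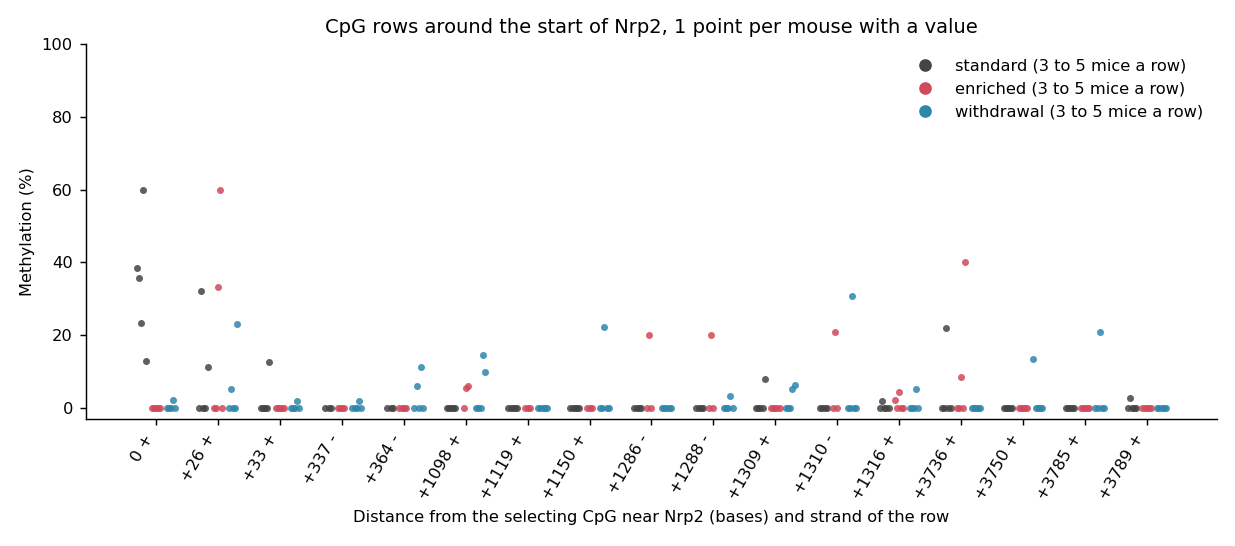
Percent methylation (vertical axis) of the CpG rows around the start of Nrp2, by distance in bases from the selecting CpG and strand (horizontal axis, in order and not to scale). Each point is 1 mouse, coloured by housing group, and mice with no value have no point. All 5 standard mice stand above the others at distance 0, between 12.9% and 60%, and at 26 bases the highest point is an enriched mouse at 60%.

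The non-CpG cytosines around the site were also read, in the second run of the table. Within 50 bases there were 7 non-CpG rows, all on the plus strand, and 7 of their 105 values were above 0, with a mean of 0.514%. Standard mice averaged 0.872%, enriched mice 0.280% and withdrawal mice 0.389%. The row 17 bases downstream held the highest value, 20% in standard mouse 4, and 8.33% in standard mouse 3, with the other 13 mice at 0; standard mouse 4 was also the highest at the selecting CpG, and the part of unconverted cytosines in its value was not tested. Over all 1697 non-CpG rows of the genes, the means were 0.711%, 0.698% and 0.597%.

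**Figure D2:**
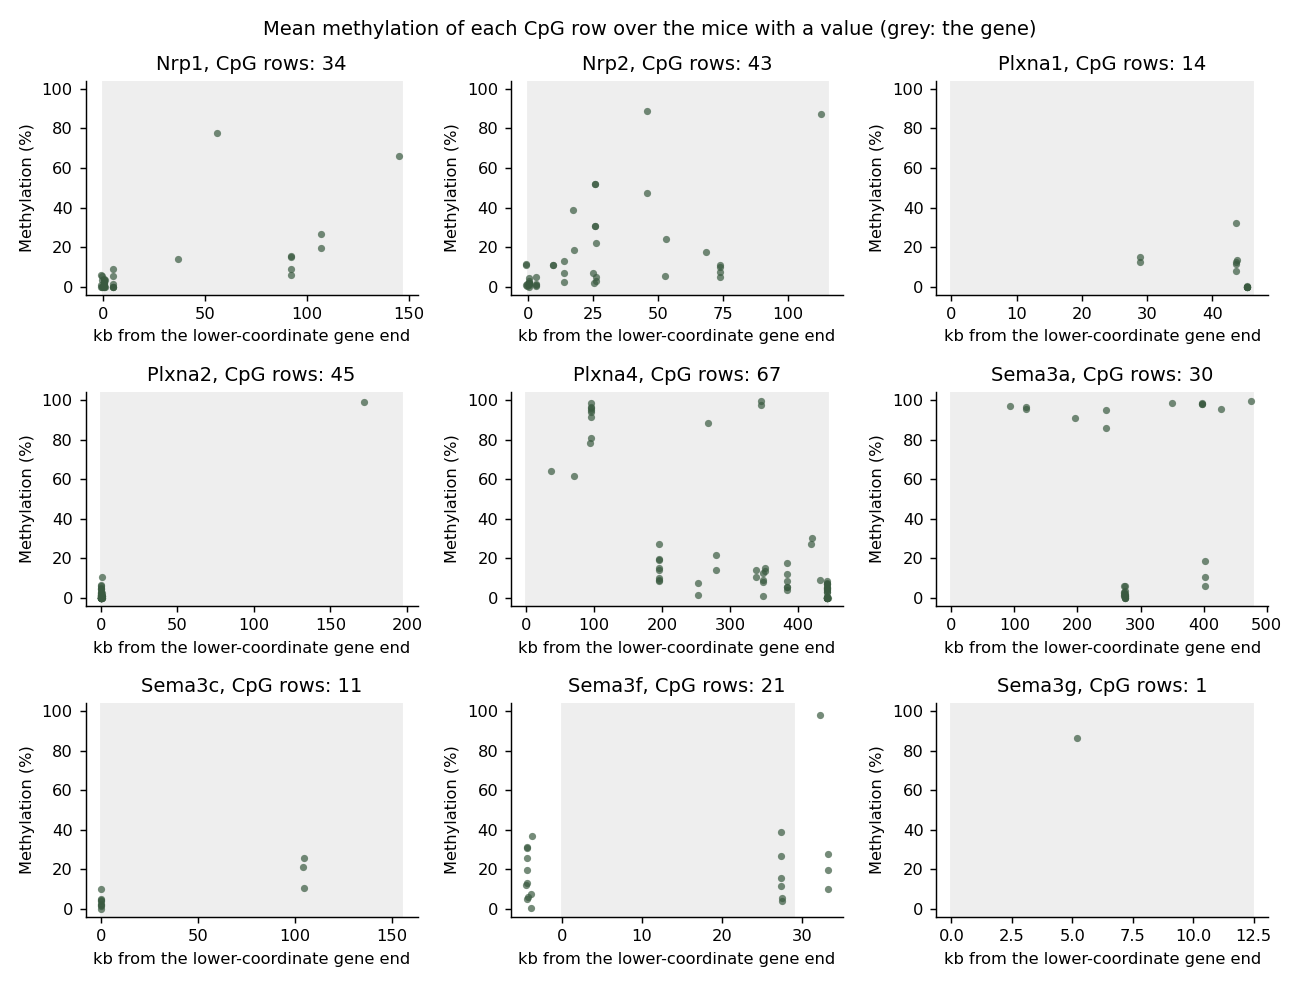
Mean methylation of each CpG row in percent (vertical axis) against its distance in kb from the gene end of lower coordinate (horizontal axis), with 1 panel per gene and the gene shaded in grey. Rows crowd near 0 at CpG-dense gene ends, and high rows lie inside Sema3a and Plxna4 and singly in other genes.

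Most rows of these genes were weakly methylated. Of the 266 rows, 79.3% had a mean under 20%, 10.5% lay from 20 to 80% and 10.2% were over 80%, beside 52.4%, 17.2% and 30.4% of all CpG rows off the Y chromosome and mitochondrial DNA. A share of 19.2% was at 0 in every mouse with a value, close to 18.3% of all rows. The median row mean ran from 0.275% in Plxna2 through 2.85% in Nrp1, 4.03% in Plxna1, 4.26% in Sema3c, 5.90% in Sema3a, 6.85% in Nrp2, 8.63% in Plxna4 and 15.8% in Sema3f to 86.4% at the single row of Sema3g. These levels depend on which fragments RRBS reached in each gene, and rows of different genes were not tested against each other.

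Among the receptors, Nrp1 had 34 rows. The 19 rows around its start had means of at most 5.78%, and 6 rows about 4.74 kb into the gene had at most 8.97%. Farther in, single rows reached 77.9% at 55.8 kb and 66.2% at 145 kb from the start. The smallest p of an Nrp1 row between withdrawal and standard mice was at position 128363327 of chromosome 8, plus strand. The 5 standard mice were at 0, enriched mice had 0, 0, 2.70%, 11.5% and 13.95%, and withdrawal mice had 0, 11.5%, 5.66%, 27.9% and 10.9%. The withdrawal and standard groups overlapped only at 0, in withdrawal mouse 1. The row was named for its small p. Here and at the rows named below, overlap between groups was not counted over all tested rows. On the scale log2((percent + 5)/(100 - percent + 5)), the difference was 1.61 ± 0.58 (SE), with a limma unadjusted p of 0.0123 and an adjusted p of 0.911. The row with the smallest p between enriched and standard mice, at 128359225 on the minus strand, averaged 3.67% ± 2.59 for standard, 0.594% ± 1.13 for enriched and 0.889% ± 1.01 for withdrawal mice (SD, n = 5 each; limma adjusted p = 0.892).

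Nrp2, the classical Sema3f receptor, had 43 rows. The 13 rows from the selecting CpG to 648 bases into the gene had means of 0 to 11.5%, with the selecting CpG the highest, and 4 rows about 3.07 kb in had at most 4.69%. The gene body was mixed. At about 26 kb, 4 neighbouring plus-strand rows had means of 30.7%, 30.8%, 52.0% and 52.0%, and in them every mouse lay between 10% and 71.5%. The last row, at 113 kb, averaged 87.5%. A row inside the overlapping gene Gm29083, at 62712908 plus, had the smallest p between withdrawal and standard mice. There 4 standard mice were at 0, enriched mice had 0, 0 and 40.6%, and withdrawal mice had 0, 20%, 22.2%, 0 and 47.8% (limma unadjusted p = 0.0612, adjusted p = 0.911). At 62749313 plus, all 4 standard mice with a value had 100%, beside 80.3% ± 18.1 (SD, n = 3) in enriched and 84.8% ± 25.3 (SD, n = 5) in withdrawal mice, with a limma adjusted p of 0.892 between enriched and standard. Both are rows where standard mice were at an extreme of the scale, in 1 at 0 and in the other at 100%.

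Of the A-type plexins, which pass the signal on, Plxna1 had 14 rows. The 7 rows that overlap Gm40415 near the end of higher coordinate had means of at most 0.385%, 6 of them at 0 in every mouse. The 5 rows with a value in every mouse, about 43.6 kb from the other end, had means of 7.68% to 32.4%. At 89345267 on the minus strand, 4 standard mice had 0, 22.2%, 0 and 0, 3 enriched mice 0, 14.8% and 0, and 4 withdrawal mice 37.5%, 13.0%, 21.4% and 28.6%. Of the 4 standard mice 3, and of the 3 enriched mice 2, were below the lowest withdrawal mouse. The withdrawal minus standard difference was 2.23 ± 0.85 (SE, log2 scale; limma unadjusted p = 0.0196, adjusted p = 0.911) and withdrawal minus enriched 2.19 ± 0.92 (unadjusted p = 0.0312, adjusted p = 0.922).

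Plxna2 had 45 rows, 44 of them within 876 bases at its start with means of 0 to 10.4%, and 21 of those at 0 in every mouse. The remaining row, 172 kb into the gene, averaged 98.8%. The full RefSeq promoter window held 23 measured rows, which had means of at most 6.38%. Isolated mice stood out at the start: at 194619864 plus, standard mouse 5 had 54.5% and the other 10 mice with a value were at 0. At 194619807 minus, enriched mice 3 and 5 had 15.4% and 21.2% and the other 12 mice with a value were at 0. No row of Plxna2 had a value in all 15 mice.

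Plxna4, the longest set with 67 rows, was low at the end of higher coordinate, where 25 rows had means of at most 8.40% and 11 were at 0 in every mouse. A run of 8 rows 94.8 kb from the other end had means of 78.1% to 98.5%, and 2 rows at 346 kb had 97.6% and 99.5%. The row with the smallest p in both comparisons with standard mice was at 32527916 on the plus strand of chromosome 6. Standard mice had 19.0%, 13.6%, 0, 31.2% and 8.70%, all 5 enriched mice were at 0, and 4 withdrawal mice had 0, 6.45%, 0 and 0. Standard mouse 3 was at 0 and overlapped with the others, so the separation was not complete. The enriched minus standard difference was -1.92 ± 0.55 (SE, log2 scale; limma unadjusted p = 0.00276, adjusted p = 0.892), and withdrawal minus standard -1.60 ± 0.59 (unadjusted p = 0.0140, adjusted p = 0.911).

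The neighbours of this Plxna4 row were alike in part. At 32527945 plus, standard mice had 15%, 13.6%, 0, 31.2% and 6.98%, enriched mice 0, and withdrawal mice 0, 3.33%, 7.69% and 0. At 32527905 plus, enriched mice were again all at 0, but withdrawal mouse 1 had 58.3%, above every standard mouse. At 32527942 plus, standard mice 4 and 5 had 31.2% and 9.09% and the other 3 standard mice were at 0. Standard mouse 4 had 31.2% in all 4 of these rows, and rows this close can come from the same reads, so they are not independent measurements. The minus-strand rows at 32527992 and 32528022, farther along, had their highest values in enriched mouse 1, at 52.9% and 56.2%. The widest difference among the tested rows of Plxna4, picked out after its values were seen, was at 32181669 plus, with standard mice at 59.3%, 95.7%, 100%, 100% and 83.0% and withdrawal mice at 64.0%, 47.1%, 8.70%, 55.2% and 50%. Only withdrawal mouse 1 lay above the lowest standard mouse there (difference -3.33 ± 1.38 (SE, log2 scale), limma unadjusted p = 0.0277, adjusted p = 0.911). The share of all rows with as little overlap was not counted.

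Among the ligands, Sema3a was nearly fully methylated in 12 rows spread over its annotated extent, with means of 85.9% to 99.7%. Those from 13218532 to 13370566 lay before the RefSeq promoter window given below. Low values were found in a pair of places. A run of 15 rows, 274 kb from the end of lower coordinate, had means of 0 to 5.90%. It spanned 13398750 to 13399682, downstream of the RefSeq promoter window of Sema3a at 13396534 to 13396833 on the plus strand. The other place, 3 rows at 402 kb, had means of 5.91% to 18.4%. In this last place, at 13527299 minus, standard mice had 10%, 0, 8.77%, 25.3% and 5.17%, enriched mice 0, 0, 1.37%, 7.27% and 0, and withdrawal mice 3.70%, 5.26%, 0, 21.7% and 0. All 3 groups overlapped (limma unadjusted p = 0.0853, adjusted p = 0.892 between enriched and standard).

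Sema3c had 8 rows within its first 375 bases, with means of 0.0436% to 9.83%, and 3 rows 104.4 kb in, with means of 10.6% to 25.5%. At 17574972 plus, standard mice had 50%, 0, 25.9%, 4.55% and 17.1%, enriched mice 0, 14.3%, 4.26%, 14.1% and 15.4%, and withdrawal mice 1.85%, 0, 0, 0 and 0. Apart from standard mouse 2, each standard mouse was above every withdrawal mouse, with a difference of -2.07 ± 0.73 (SE, log2 scale, limma unadjusted p = 0.0105, adjusted p = 0.911). This row too was named for its small p, and the share of all rows with as little overlap was not counted. At 17679302 plus, standard mice had 31.4%, 11.5%, 0 and 30.0%, enriched mice 0, 3.70%, 0 and 0, and withdrawal mice 17.2%, 0, 22.0% and 11.8%. Here the enriched mice were low and the withdrawal mice were not, which differs from the order at 17574972, where withdrawal mice were the lowest.

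Sema3f, the classical ligand of Nrp2, had 21 rows, of which 6 were inside the gene. The others lay in its flanks, 11 of them inside the neighbouring gene Gnat1 and 4 in the non-coding gene Gm51690. The farthest, 4462 bases outside the gene, averaged 12.2%, and the next row beyond the 5 kb limit, at 5374 bases, was at 0. At 107714734 minus, standard mice had 33.3%, 0 and 58.3%, enriched mice 0, 0, 0 and 20%, and withdrawal mice 6.25%, 0, 0, 0 and 0. Of the 3 standard mice, 2 were above every other mouse and the other was at 0, with withdrawal minus standard -2.52 ± 0.94 (SE, log2 scale; limma unadjusted p = 0.0167, adjusted p = 0.911). At 107677188 plus, 3 standard mice were at 0, enriched mice had 16.7%, 48.3%, 26.9% and 0, and withdrawal mice 0, 36.8%, 15% and 0. Both rows lay in the flanks outside Sema3f, the one at 107714734 in Gm51690 and the one at 107677188 in Gnat1. They had opposite orders of standard and enriched mice. Sema3g was covered by 1 row, at 31223058 plus of chromosome 14, where standard mice averaged 87.7% ± 15.5 (n = 5), enriched mice 69.9% ± 34.8 (n = 4) and withdrawal mice 98.2% ± 4.07 (n = 5; SD). Enriched mouse 4, at 20%, was the lowest by far.

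**Figure D3:**
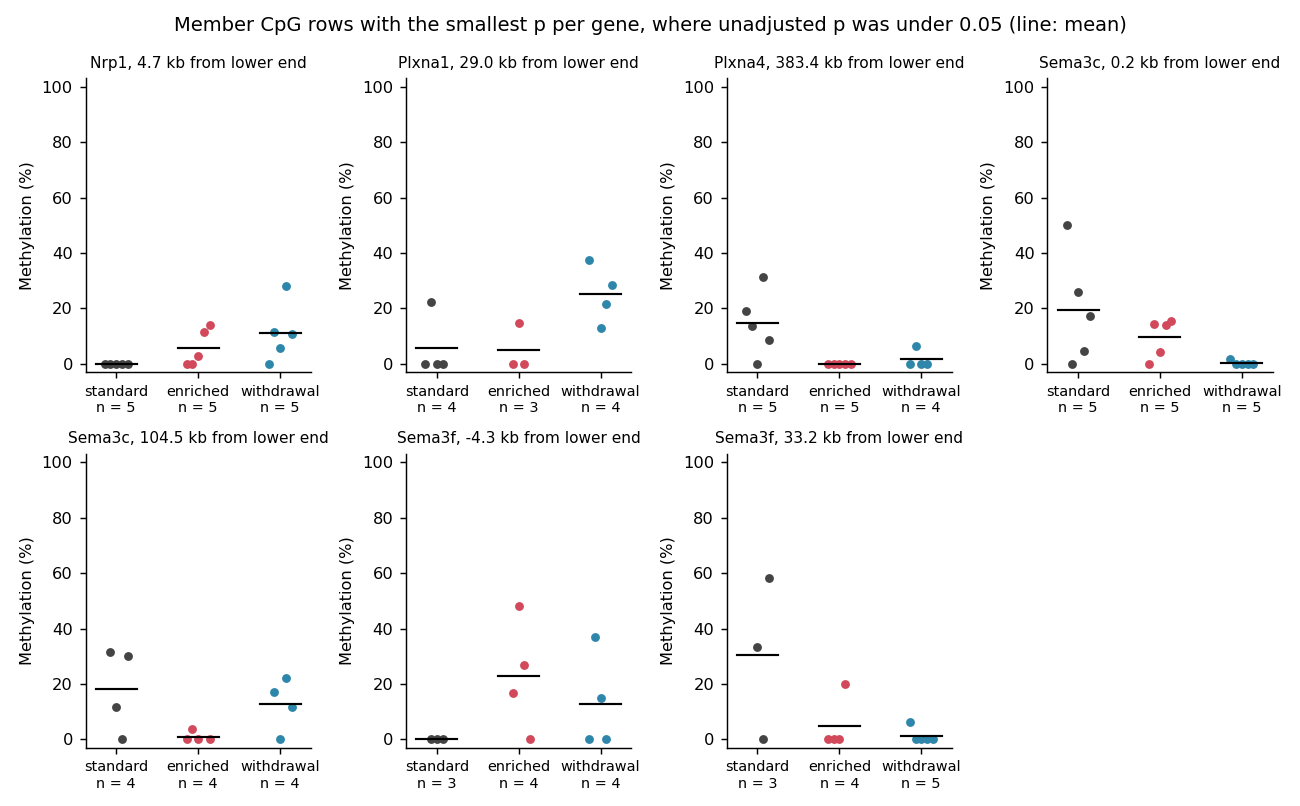
Percent methylation (vertical axis) in each mouse, by housing group (horizontal axis), at the named rows whose unadjusted p was under 0.05 in a comparison with standard mice. Points are mice and lines are group means. By their means, standard mice are highest in the Plxna4 row, in both Sema3c rows and in 1 row of the Sema3f flanks. They are lowest in the Nrp1 row and the other row of the Sema3f flanks.

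To compare the groups, rows whose mice spanned at least 5 percentage points were fitted together by limma, 350663 in all, with 202 rows of these genes besides the selecting CpG. None of the 202 passed an adjusted p under 0.05 in any contrast, and neither did any row of the table (0% called). On simulated data this test missed many or all of the differences put in, so the absence of calls does not show that the groups were alike. At an unadjusted p under 0.05 there were 7 of 202 rows between enriched and standard mice (3.47%, 2 higher and 5 lower), beside 4.67% of all tested rows (2.41% higher and 2.26% lower). Between withdrawal and standard mice there were 11 (5.45%, 5 higher and 6 lower), beside 4.30% (2.35% higher and 1.95% lower). Between withdrawal and enriched mice there were 7 (3.47%, 4 higher and 3 lower), beside 4.18% (2.24% higher and 1.94% lower). All 3 shares were near those of all rows, and the smallest adjusted p-values over the genes' rows were 0.892, 0.911 and 0.922. The comparisons share mice in pairs and are not independent of each other.

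The direction was as mixed as the counts. Of the 202 rows, 95 had a higher and 87 a lower mean in enriched than in standard mice, 104 a higher and 88 a lower mean in withdrawal than in standard mice, and 91 a higher and 106 a lower mean in withdrawal than in enriched mice. The median difference was 0, 0.444 and -0.390 points in that order, beside 0 in each contrast over all rows tested. The pattern of the selecting CpG, high in standard mice and near 0 in the other 2 groups, was therefore not shared by the set. It was seen in part at some rows, among them the neighbouring Plxna4 rows at 32527916 and 32527945 and the row at 107714734 in the flank of Sema3f. The Nrp1 row at 128359225 had this order at low levels, with means of 3.67% (standard), 0.594% (enriched) and 0.889% (withdrawal). In the Plxna2 row at 194619864 and the Plxna4 row at 32586728, the standard mean rested on 1 mouse, with the others at 0. The rows at 32527916, 107714734, 128359225 and 194619864 had been named for the smallest p of their gene against standard mice. Their order follows in part from that choice. Rows with such a partial pattern were not counted over the whole table.

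**Figure D4:**
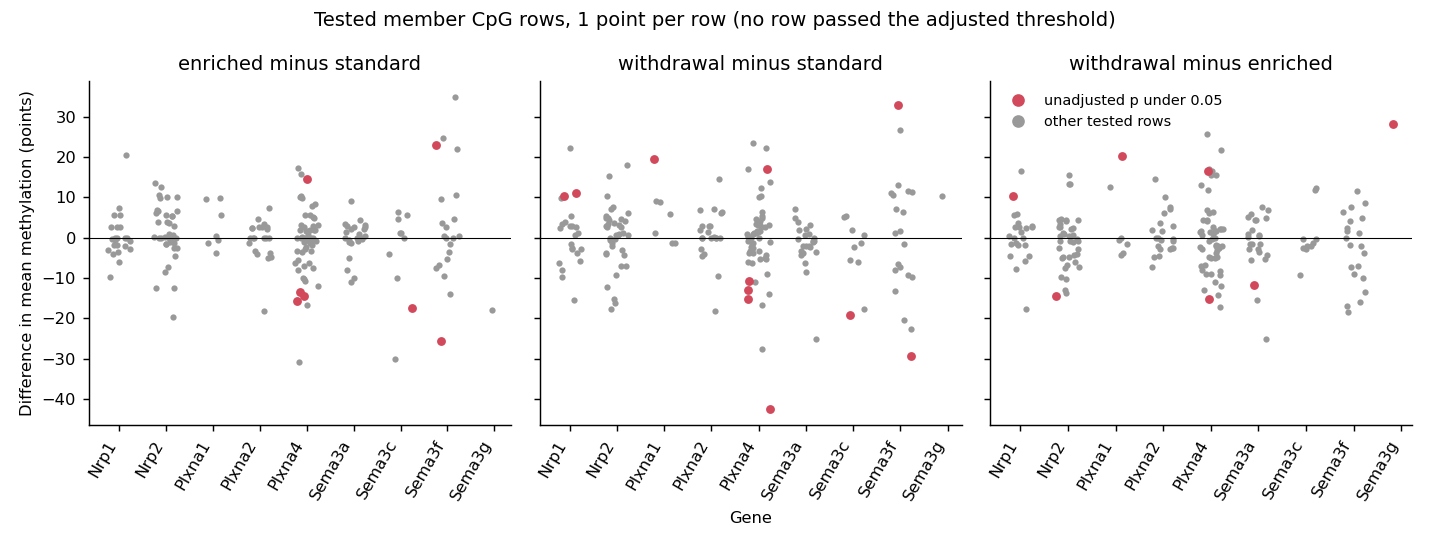
Difference in mean methylation in percentage points (vertical axis) for each tested row, by gene (horizontal axis), in 1 panel per comparison. Red points have an unadjusted p under 0.05, and none passed the adjusted threshold; points lie on both sides of 0 in every gene with more than 1 tested row.

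Averaged over the measured rows of each gene, the groups overlapped. The mean over rows with a value in every mouse was taken for each gene with at least 3 such rows, 9267 genes in all, with 7 of the 10 genes (Plxna2, Plxna3 and Sema3g had too few rows). The means rested on 20 rows in Sema3a, 15 in Nrp2, 14 in Plxna4, 13 in Nrp1, 6 in Sema3c and 5 each in Plxna1 and Sema3f. Those of Sema3c lay within 331 bases at its start and those of Plxna1 within 155 bases. Of the Sema3f rows, 2 were inside Gnat1. No gene was called, and none of the 7 had an unadjusted p under 0.05, beside 5.94%, 5.13% and 4.61% of all genes in the 3 contrasts. Nrp2, without the selecting CpG, averaged 18.9% ± 2.13 for standard, 21.1% ± 4.87 for enriched and 20.5% ± 1.21 for withdrawal mice (SD, n = 5). Standard mice had 16.8%, 21.5%, 17.1%, 18.2% and 20.8%, inside the enriched range of 13.9% to 26.9% and overlapping the withdrawal range of 18.5% to 21.7%. The Nrp2 difference between enriched and standard mice was 0.15 ± 0.15 (SE, log2 scale; limma adjusted p = 0.911).

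Nrp1 averaged 11.6% ± 4.04, 11.7% ± 3.38 and 12.9% ± 4.09 in standard, enriched and withdrawal mice (SD, n = 5). In the same order, Plxna1 averaged 12.6% ± 6.43, 16.5% ± 6.29 and 17.3% ± 11.1, and Plxna4 29.8% ± 5.93, 30.4% ± 4.81 and 31.3% ± 3.86. The spread among mice exceeded the difference between groups in each of these receptors. Sema3a averaged 31.9% ± 1.05, 32.9% ± 1.58 and 31.2% ± 1.11, and its groups overlapped. Sema3f averaged 18.5% ± 6.54, 18.5% ± 12.1 and 16.6% ± 11.4.

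The smallest gene-level p was that of Sema3c between withdrawal and enriched mice. Sema3c averaged 9.96%, 0.827%, 5.57%, 1.83% and 2.86% in standard mice, 3.49%, 4.77%, 2.51%, 6.68% and 5.25% in enriched mice, and 0.309%, 2.11%, 2.82%, 2.61% and 1.71% in withdrawal mice. Withdrawal mice overlapped the enriched mice only at the lowest enriched mouse, with a difference of -0.50 ± 0.24 (SE, log2 scale, limma unadjusted p = 0.0600, adjusted p = 0.989). Such overlap was not counted over all genes. Of the 6 rows in this mean, the row at 17574972 differed by -9.24 points. The mean of the other 5 differed by -1.30 points. In percentage points, enriched means were above standard means in 7 of 7 genes, beside 4775 higher and 4473 lower of all 9267, with differences as small as 0.0609 points in Sema3f and 0.0651 in Nrp1. On the log2 scale of the tests Sema3f turned to -0.12 ± 0.48 (SE), which leaves 6 of 7. The median difference of the 7 genes was 0.656 points between enriched and standard mice, 1.28 between withdrawal and standard and -0.612 between withdrawal and enriched, beside 0.0750, 0.313 and 0.228 over all genes.

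**Figure D5:**
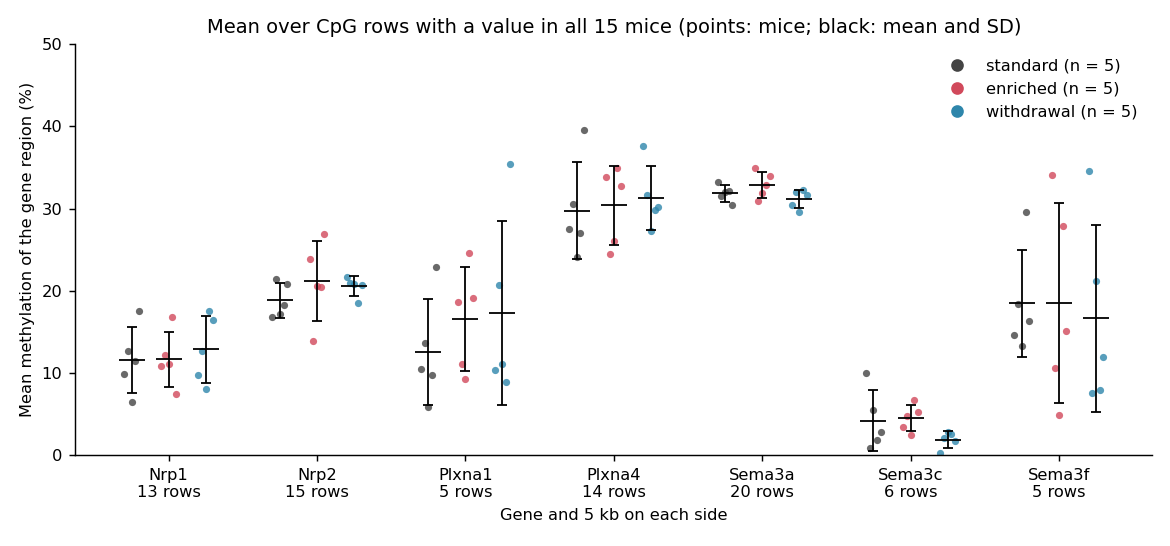
Mean methylation in percent (vertical axis) over the rows with a value in all mice of each gene and 5 kb on each side (horizontal axis), without the selecting CpG. Points are mice, black bars are mean and SD, and the 3 groups overlap in all 7 genes.

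On a finer scale, 12 windows of 1 kb with at least 3 complete rows lay in these genes, among 15676 in the table. None was called, and 1 had an unadjusted p under 0.05 between enriched and standard mice, beside 5.70% of all windows; none did in the other contrasts, beside 4.79% and 4.39%. That window held 5 rows at the start of Sema3c, from 17575001 to 17576000. Standard mice had 1.95%, 0.993%, 1.49%, 1.28% and 0, and enriched mice 4.18%, 2.87%, 2.16%, 5.20% and 3.23%. All these values were near 0, and the highest standard mouse, at 1.95%, was close to the lowest enriched mouse, at 2.16%. Withdrawal mice, from 0 to 3.39%, overlapped both groups (enriched minus standard 0.50 ± 0.18 (SE, log2 scale), limma unadjusted p = 0.0147, adjusted p = 0.808). The window is named for its small p, and group overlap was not counted over all windows. At the Sema3c row at 17574972, just outside the window, the standard mean was above the enriched mean, while the mice of the 2 groups overlapped. In Nrp2, the window of 4 rows at about 26 kb averaged 38.7% ± 4.35, 42.0% ± 10.1 and 43.5% ± 4.74 in standard, enriched and withdrawal mice (SD, n = 5; limma smallest unadjusted p = 0.418, adjusted p = 0.995).

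The wider pathway was described by 48 other genes, among them B-, C- and D-type plexins, semaphorins of classes 3 to 7, VEGF and its receptors, collapsin response mediators and cytoskeletal effectors. Of the 27 with enough rows, none was called. The counts that follow stand beside 5.94%, 5.13% and 4.61% of all 9267 genes in the 3 contrasts. At an unadjusted p under 0.05, 1 was lower in enriched than in standard mice: Cdk5, a kinase of the semaphorin response, with 14.5% in standard and 10.2% in enriched mice (limma unadjusted p = 0.0255, adjusted p = 0.813). Between withdrawal and standard mice 4 were higher and none lower, beside 349 higher and 126 lower of all genes. Sema4g had 1.75% in standard and 4.59% in withdrawal mice, the actin-severing factor Cfl1 15.7% and 20%, and Farp1 47.3% and 50.7%. The last was Vegfa, a ligand that also binds neuropilins, at 5.32% and 14.8%. Its mean rested on 3 rows, and withdrawal mice ran from 2.99% to 25.1%. For these 4 genes the limma unadjusted p ran from 0.0163 to 0.0411 and the adjusted p from 0.952 to 0.963. Between withdrawal and enriched mice 1 was higher, Farp2, a plexin A partner, at 34.7% in enriched and 43.5% in withdrawal mice (limma unadjusted p = 0.0107, adjusted p = 0.976).

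The 5 rows outside these genes whose values were most like the selecting CpG over the 15 mice were ranked by Pearson correlation over the rows with a value in every mouse. They lay inside Tnrc18 (r = 0.937), 33309 bases from Snap25 (r = 0.904), inside Dlx3 (r = 0.902), inside D17H6S56E-5 (r = 0.896) and 47534 bases from Vrk1 (r = 0.894). The Tnrc18 row averaged 21.8% ± 15.3 for standard, 0.667% ± 1.49 for enriched and 2.22% ± 4.97 for withdrawal mice (SD, n = 5). These values describe rows picked for their likeness and follow from that choice.

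As a measure of agreement within a mouse, 17 CpGs of these genes had rows on both strands. Error and true differences between the strands were not told apart. Over 218 paired values the strands were equal in 50.5%, differed by 6.60 points on average, and differed by over 20.3 points in 1 of 10 values, with the largest difference at 88.2. Over the whole table, 29826 pairs differed by 7.85 points on average and were equal in 57.3% of values. Among pairs with a mean under 20%, which are 16 of the 17 here, the order turned, with 5.62 points in these genes and 4.65 in the table. The selecting CpG, read on 1 strand, could not be checked in this way. No read counts accompany the percentages, so the depth behind each value is unknown.

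The number of rows with a value differed between mice, from 155 of 266 in standard mouse 1 (41.7% missing) to 262 in withdrawal mouse 4 (1.504% missing), and from 297844 to 444106 over all CpG rows. Of these 266 rows, 79 had a value in every mouse. The dissected tissue holds several cell types, so a change of methylation within cells and a change in their mix cannot be told apart. At gene starts, methylation averaged 1.73% at Prox1, a granule neuron gene, 1.63% at Slc1a3 and 33.4% at Aldh1l1, both astrocyte genes, and 24.7% at P2ry12, a microglia gene; the other listed markers had no complete row there. The orders of the groups differed between markers: in standard, enriched and withdrawal mice Aldh1l1 averaged 39.4%, 30.7% and 30.2%, Slc1a3 1.35%, 1.59% and 1.94%, P2ry12 27.4%, 19.1% and 27.6%, and Prox1 2.37%, 1.33% and 1.48%. These means rested on 3 complete rows at Prox1, 10 at Slc1a3, 8 at Aldh1l1 and 2 at P2ry12. Methylation of these genes does not measure cell numbers, and their part in any result was not tested. The labels name no cage, litter or batch, so p-values measure the spread between these mice only.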

How the data were processed

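Per the submitters' processing notes, the tools were Trim Galore 0.4.0, cutadapt 1.8.1, Bismark 0.16.1 and methylKit 1.5.2, with build mm10; their order and settings are not given in the sources used here. The authors deposited percent methylation per cytosine and strand, without read counts. The first run through the chromosomes was taken as CpG: in RefSeq promoter windows, 47150 of 47150 of its rows lay on a CpG, against 0 of 134362 rows of the second run. Rows had values in at least 3 mice of each group. Values were transformed as log2((percent + 5)/(100 - percent + 5)) and fitted by limma 3.58.1 (R 4.3.3) with the 3 group means and a variance trend, two-sided, leaving out chromosome Y and mitochondrial DNA. Benjamini-Hochberg adjustment ran over every row, gene or window fitted, with a threshold of 0.05. Gene means and 1 kb windows needed at least 3 rows with a value in all 15 mice. The selecting CpG was among the rows fitted and adjusted together, but its own test is not given. It was left out of the gene and window means, except in the alternative runs named as including it. Named rows were, per gene, those with the smallest p in each comparison with standard mice. The genes and lists were chosen with earlier results of these data known. The code was tested on simulated data: wide differences in weakly methylated rows were called in part, with some false calls, and narrower ones, or any in rows of middle methylation, were not. Exons and introns were not used here.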

Additional observations from a re-analysis of the deposited data

Results flagged for a closer look

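In 42 groups of 5 mice examined, covering the gene means and named window means, 2 had a mouse far from the rest of its group; chance alone gives such a mouse in about 1 in 20 groups. In the Plxna1 window at 89359001 of chromosome 6, withdrawal mouse 2 averaged 30.6%, with a gap to its nearest group mate of 0.827 of the group's range. In the Sema3f window at 107708001 of chromosome 9, standard mouse 4 averaged 49.4%, with a gap of 0.808 of the range; this mouse also had the highest value at the selecting CpG near Nrp2.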

How the results depend on the processing

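No row, gene mean or window of these genes was called at an adjusted p under 0.05 by limma under any alternative run. Counts at an unadjusted p under 0.05 are given next, for enriched minus standard, withdrawal minus standard and withdrawal minus enriched. Leaving out each mouse in turn gave 5 to 7, 6 to 12 and 4 to 11 rows, 0 to 1, 0 to 1 and 0 to 1 gene means, and 1 to 1, 0 to 0 and 0 to 0 windows. The lowest 6 came without standard mouse 3 and without standard mouse 4 (7 without enriched mouse 2), the 4 without withdrawal mouse 4 and the 11 without withdrawal mouse 3. The single gene mean came without enriched mouse 2 in the first contrast, standard mouse 2 in the second, and enriched mouse 3, standard mouse 1 or standard mouse 2 in the third. Rows with a value in all mice gave 2, 2 and 2 rows, with fewer rows tested. With the replicate number as a block, 7 rows instead of 11 were counted between withdrawal and standard mice. The labels do not say whether the numbers pair the mice. Deviations of same-numbered mice correlated between -0.0179 and 0.0192 in 15 pairs, and own number was best in 2. Such correlations cannot show whether these mice shared a cage, litter or batch. An offset of 1 point gave 1 gene mean in withdrawal minus enriched, and windows of at least 2 complete rows gave 1 in withdrawal minus standard. With the selecting CpG, windows numbered 2 and 1 in the comparisons with standard mice. The Nrp2 gene mean then turned to -0.0166 (enriched minus standard) and -0.0395 (withdrawal minus standard) on the log2 scale. That CpG was chosen for its high values in standard mice, so these changes follow from the choice and are no test of it. Among 994 single values under the alternatives, the sign turned in 35, in 30 of them by leaving out 1 mouse; the cause was not tested. On the percent scale, Plxna1 withdrawal minus enriched was 0.772 points and Sema3f enriched minus standard 0.0609; with 10 kb flanks Sema3f withdrawal minus enriched was 0.252. Without 1 mouse, log2 differences ran from -0.125 to 0.1598, -0.0121 to 0.273 and -0.00334 to 0.238 for Nrp1 in the 3 contrasts; for enriched minus standard, from -0.0440 to 0.186 in Plxna4, -0.0330 to 0.340 in Sema3c, -0.412 to 0.209 in Sema3f and -0.00253 to 0.683 in the Plxna1 window; and for withdrawal minus enriched, from -0.169 to 0.0765 in Nrp2, -0.329 to 0.173 in Plxna1, -0.0354 to 0.126 in Plxna4 and -0.461 to 0.165 in Sema3f. A coverage minimum was not run, because the table gives percentages only.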
